A study of Mus musculus with 16 samples.

Results

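HOX genes are the homeobox transcription factor genes that lie in 4 clusters of the mouse genome. The 38 listed members were taken by symbol from the 41388 genes of the deposited count files, with no filter on their level, and a further mouse HOX gene was not analysed here. The Hoxa cluster held 10 members on chromosome 6 (chr6:52162511-52260880, build GRCm38, minus strand), Hoxb held 10 on chromosome 11 (chr11:96194316-96368256, plus strand), Hoxc held 9 on chromosome 15 (chr15:102921103-103036852, plus strand) and Hoxd held 9 on chromosome 2 (chr2:74668310-74765142, plus strand). At least 1 read was counted for 35 members in the 16 libraries, and 10 passed the filter on low counts that precedes the test.

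HOX proteins bind DNA through a homeodomain and give cells of the embryo their position along the head-to-tail axis. Genes of a cluster are switched on in the order in which they lie, so that low-numbered members (anterior, paralogue groups 1 to 3) are used from the hindbrain backward and high-numbered members (posterior, groups 9 to 13) near the tail, limb tips and genital region. The cerebral cortex forms in front of the HOX domain, and the clusters are held silent there by Polycomb complexes. Retinoic acid and CDX factors are known activators of the clusters, and TALE homeodomain proteins (MEIS, PBX and PKNOX) bind DNA beside HOX proteins.

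The libraries came from primary cortical neurons of Swiss Webster mouse embryos at embryonic day 16. Each culture was transduced on day 5 in vitro with 2 lentiviruses, and RNA was taken on day 10. The first virus carried exon 1 of huntingtin with 25 glutamines (25Q, wild type) or 72 glutamines (72Q, mutant), and the second carried a short hairpin RNA (shRNA) against luciferase as the control or 1 of 2 shRNAs against Twist1, a bHLH transcription factor. The 4 groups were 25Q with control shRNA, 72Q with control shRNA, and 72Q with either Twist1 shRNA 1 or Twist1 shRNA 2, with n = 4 libraries each, 1 per experiment (labelled exp107, exp108, exp109a, exp109b). The labels exp109a and exp109b share a number, so these 2 experiments may not be independent of each other. All groups carried huntingtin exon 1 from a virus, and Twist1 shRNAs in 25Q neurons were not analysed here.

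Total counts per library lay between 15814525 and 19533034. Levels are given as raw counts and as CPM, which here are counts scaled to library size with TMM factors, with mean ± SD over n = 4. Fold changes are log2 values ± SE from the quasi-likelihood test of edgeR. They were fitted with a prior count of 2, which draws them toward 0 where counts are few. They can thus be smaller than the ratios of summed counts given beside some of them. The words rose and fell are kept for genes with a Benjamini-Hochberg adjusted p under 0.05 over the 15103 genes tested. Twist1 stood at 0.271 ± 0.225 CPM in 25Q, 4.15 ± 0.763 in 72Q with control shRNA, 1.57 ± 0.452 with shRNA 1 and 1.64 ± 0.403 with shRNA 2, and every library of both shRNA groups lay below every 72Q control library.

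The start regions of 2 members are shown because their transcripts moved in opposite directions with the 2 Twist1 shRNAs, as given below. Their 250 bases before the annotated start are printed from the RefSeq promoter table (GRCm38.p6), on the strand of the gene, with CpG dinucleotides, the site of DNA methylation in mammals, in capitals. Hoxd8 is at chr2:74704365-74704614 (plus strand), and Hoxa13 is at chr6:52260881-52261130 (minus strand).
Hoxd8: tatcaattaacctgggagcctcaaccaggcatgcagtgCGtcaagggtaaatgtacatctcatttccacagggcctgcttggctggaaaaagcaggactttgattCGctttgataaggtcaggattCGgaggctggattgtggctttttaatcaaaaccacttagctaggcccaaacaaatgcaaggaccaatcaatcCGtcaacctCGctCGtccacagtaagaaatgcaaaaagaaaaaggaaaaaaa
Hoxa13: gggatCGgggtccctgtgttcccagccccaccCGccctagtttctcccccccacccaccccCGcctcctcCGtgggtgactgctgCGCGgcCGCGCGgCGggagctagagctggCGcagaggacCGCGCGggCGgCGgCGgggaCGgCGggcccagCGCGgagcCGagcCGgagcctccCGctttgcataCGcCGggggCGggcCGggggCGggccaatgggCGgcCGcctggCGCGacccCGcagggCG
The Hoxd8 window held 6 CpG dinucleotides at 44.4% G and C, and the Hoxa13 window held 35 at 80% G and C. These were chosen after the values were seen. The other 3 members that moved so, Hoxc13, Hoxb13 and Hoxb9, are not among the 24 windows described next. In 22 members with an entry (24 windows) the median was 12.5 CpG dinucleotides per window, against 6 in 32841 windows of the same length over all genes. The E-box CANNTG, the sequence class that bHLH dimers bind and which reads the same on both strands, occurred in 17 of the 24 windows (70.8%) and in 66.2% of all windows. The Hoxd8 window had 1 match and the Hoxa13 window had 0. Narrower forms of the same motif were searched on both strands. CATATG was in 0 of the 24 windows against 3.47% of all. The form CATCTG was in 2 (8.33%) against 14.4%.

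HOX transcripts were close to absent in 25Q neurons and present in every 72Q library. Summed over the 38 members, the 25Q libraries of exp107, exp108, exp109a and exp109b held 3, 4, 4 and 3 HOX counts, and the 72Q control libraries held 225, 206, 227 and 300. With Twist1 shRNA 1 the sums were 60, 46, 66 and 64 counts, and with Twist1 shRNA 2 they were 449, 357, 484 and 453. The 4 groups did not overlap: in each experiment the order was 25Q, shRNA 1, 72Q control and shRNA 2. In CPM the sums were 0.214 ± 0.0369, 3.40 ± 0.724, 13.5 ± 1.49 and 22.7 ± 2.16 in that order. These are low levels even in the highest group, and in a bulk sample fewer cells that carry a transcript cannot be told apart from less of it per cell.

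**Figure D1:**
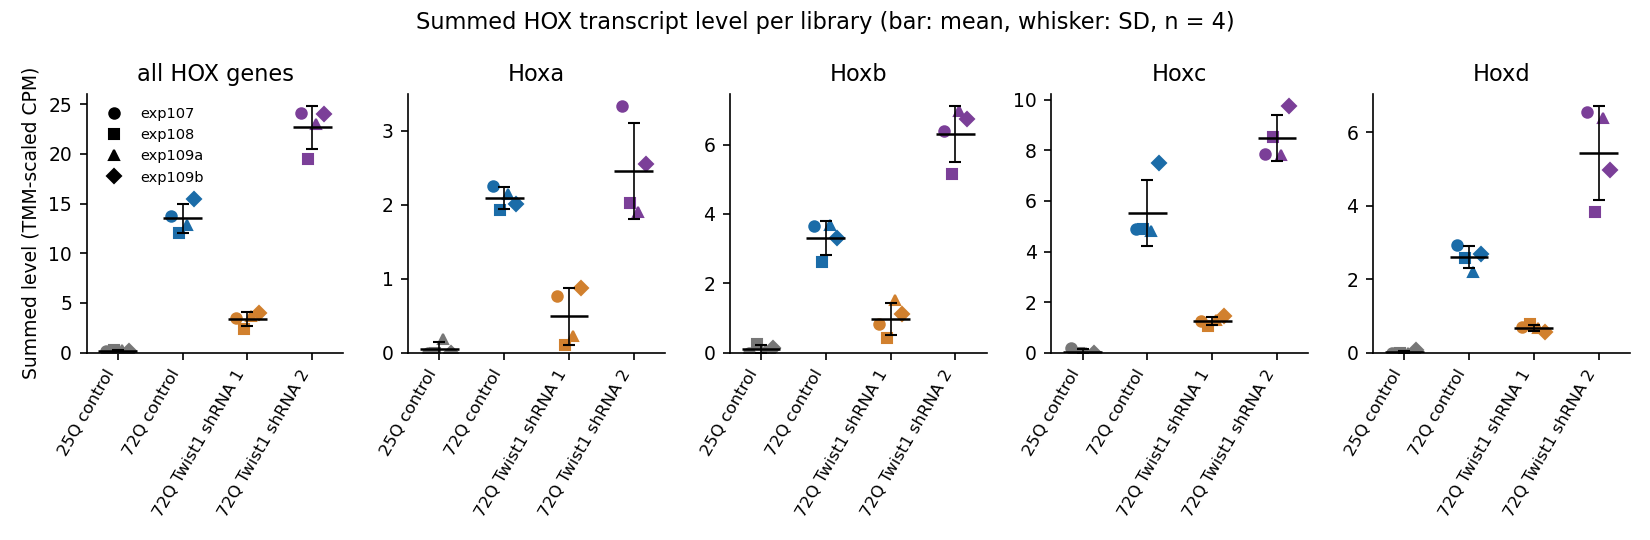
Summed HOX level in TMM-scaled CPM (vertical axis) for all 38 members and for each cluster, by group (horizontal axis); each symbol is 1 library, its shape gives the experiment, and bars and whiskers are mean and SD (n = 4). The sum over all members is 0.214 in 25Q, 13.5 in the 72Q control, 3.40 with shRNA 1 and 22.7 with shRNA 2.

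Each of the 4 clusters contributed. In the 72Q control the Hoxc cluster held 394 of 958 HOX counts (41.1%), Hoxb 234 (24.4%), Hoxd 183 (19.1%) and Hoxa 147 (15.3%). The shares were 37.3, 27.9, 24.1 and 10.7% of 1743 counts with shRNA 2, and 37.3, 28.4, 20.3 and 14.0% of 236 counts with shRNA 1. Between 22 and 27 members were seen in each 72Q control and each shRNA 2 library, against 10 to 14 in the shRNA 1 libraries and 1 to 3 in 25Q.

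By position, the posterior members held most of the counts. Paralogue group 13, the most posterior class, held 434 of 958 counts (45.3%) in the 72Q control, 100 of 236 (42.4%) with shRNA 1 and 931 of 1743 (53.4%) with shRNA 2. In 25Q it held 11 of 14 counts (78.6%), so this weighting was not particular to 72Q. Of the 434 counts in the 72Q control, Hoxc13 held 218 and Hoxb13 176. In the 72Q control, with shRNA 1 and with shRNA 2, all counts of groups 9 to 13 together were 572, 129 and 1119. Those of the central groups 4 to 8 were 366, 92 and 597, and those of the anterior groups 1 to 3 were 20, 15 and 27. The anterior genes, which mark the hindbrain in the embryo, had 0 counts in all 25Q libraries, and none of the 7 passed the filter, while 4 of 15 central and 6 of 16 posterior members did. Within the posterior class, groups 11 and 12, which lie beside group 13, had 4 and 2 counts in the 72Q control.

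**Figure D2:**
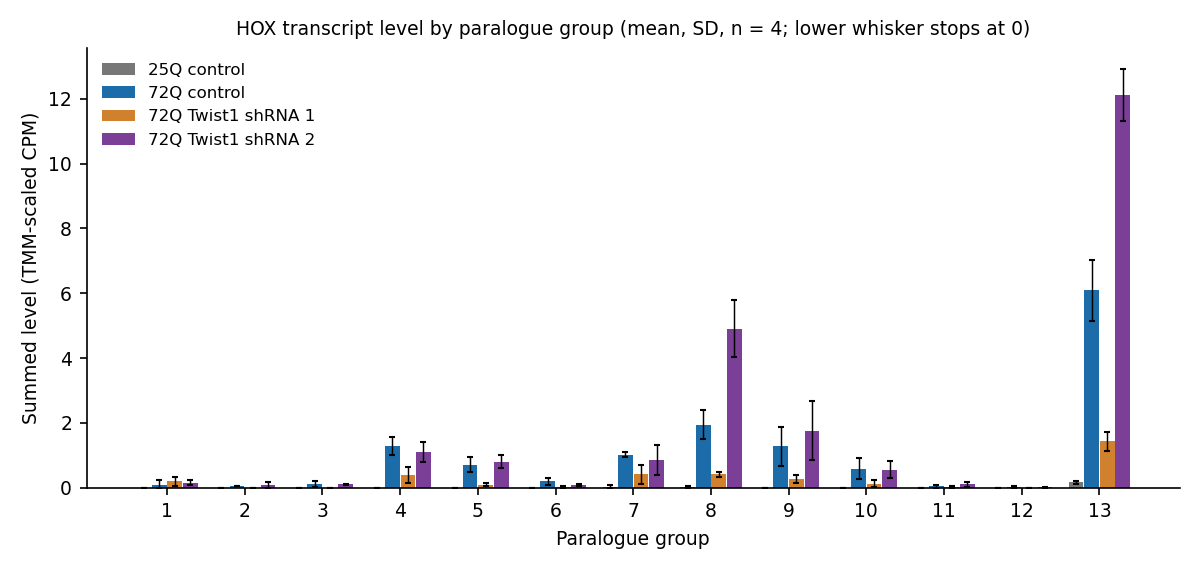
Summed level in TMM-scaled CPM (vertical axis) of the members of each paralogue group (horizontal axis) in the 4 groups; bars are means and whiskers SD (n = 4), with the lower whisker stopped at 0. Group 13 stands highest in all groups, at 6.10 in the 72Q control and 12.1 with shRNA 2, and in these 2 groups of libraries group 8 comes next, at 1.95 and 4.91.

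Mutant against wild-type huntingtin was compared first, with control shRNA in both. The 10 members that passed the filter rose in 72Q and 0 fell, while 29.3% of all genes tested were called higher and 27.8% lower. They passed the filter through the groups in which they were high, so their number carries no weight, and the same holds for the counts over these 10 in the comparisons below. Over all 38 members with no filter, 32 had a higher mean level in 72Q, 0 a lower one and 6 were at 0 in both groups. Of genes with a count, 49.9% were higher and 43.2% lower. Just 5 members had a count in 25Q, 14 counts in all, so the other members could not be lower in 72Q. A single read was enough to place a member at 0 in 25Q among the 32, as for Hoxc12 and Hoxd12. All 4 72Q libraries lay above all 4 25Q libraries for 15 members, against 10.9% of genes with a count. In a fit with no filter on low counts, 15 of the 35 members with a count were called higher and 0 lower, beside 15.4 and 14.9% of 28258 genes. The same fit called 16 members higher with 72Q and Twist1 shRNA 2 than with 25Q, beside 17.3% of genes. Among the 10 members that passed the filter, none was lower at an unadjusted p under 0.05 (0 by edgeR and 0 by DESeq2).

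Hoxc13, a gene of hair and nail formation (chr15:102921103-102928814), had the highest level. Its counts were 3, 0, 0 and 0 in 25Q and 38, 58, 39 and 83 in the 72Q control, in the order exp107, exp108, exp109a and exp109b. The groups did not overlap, and the exp109b library stood highest. The log2 fold change was 4.31 ± 0.50 (adjusted p = 1.20e-12), and the ratio of summed counts was 67.6 (95% interval 22.8 to 330, counting error only). Hoxb13, a gene of the tail bud and prostate (chr11:96194316-96197447), went from 0, 4, 1 and 2 counts to 37, 36, 55 and 48, a log2 fold change of 3.56 ± 0.44 (adjusted p = 4.33e-11) and a ratio of 23.4 (11.1 to 59.0). Hoxa13, a gene of digits and genital tubercle (chr6:52257694-52260880), had 1 count in 25Q and 11, 4, 6 and 10 in 72Q, and rose by 2.11 ± 0.58 log2 units (adjusted p = 2.84e-05), a ratio of summed counts of 28.8 (4.81 to 1175). The fourth gene of paralogue group 13, Hoxd13, also of the digits, did not pass the filter and had 0 counts in 25Q and 9 in 3 of the 4 72Q control libraries.

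Among the other posterior members, Hoxd9 (chr2:74697727-74700208) had 17, 7, 18 and 19 counts in 72Q, and Hoxb9 (chr11:96271457-96276595) had 11, 1, 4 and 5. Both belong to paralogue group 9, used in the lower thoracic and lumbar region, and both were at 0 in all 25Q libraries. Set against a floor of 3 counts over the 25Q group, Hoxd9 was 18.9-fold higher and Hoxb9 6.51-fold higher. Hoxc10, a lumbar motor neuron gene, had 6, 1, 11 and 12 counts against 0, 9.30-fold above the same floor. The 72Q counts were taken as exact here, so these ratios are not lower limits. Fitted log2 fold changes were 3.105 ± 0.541 for Hoxd9, 1.875 ± 0.594 for Hoxb9 and 2.227 ± 0.722 for Hoxc10. Adjusted p values (edgeR) were 1.41e-08 for Hoxd9, 5.36e-05 for Hoxb9 and 1.22e-04 for Hoxc10.

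Of the central members, Hoxd8 (chr2:74704615-74707933) had 0, 0, 0 and 1 count in 25Q against 23, 23, 17 and 25 counts with 72Q, giving a ratio of 81.9 (95% interval 14.3 to 3269). Its fitted log2 fold change was 3.42 ± 0.54 (adjusted p = 1.71e-09). Hoxa7 (chr6:52214491-52221854) had 2 counts in the exp109a library of 25Q, 0 in the other 25Q libraries and 16, 19, 19 and 18 in 72Q, and rose by 3.00 ± 0.62 log2 units (adjusted p = 5.83e-07), a ratio of 33.5 (8.94 to 282). These trunk-level genes were detected in every 72Q control library. Hoxc4 had 14, 14, 23 and 21 counts and Hoxc8 had 14, 8, 6 and 19 in 72Q, both against 0 in 25Q. Set against the floor of 3 counts they were 22.3-fold and 14.6-fold higher. Fitted log2 fold changes were 3.31 ± 0.578 and 2.779 ± 0.701 (adjusted p = 1.29e-08 and 6.94e-06, edgeR). Hoxc4 acts at neck level and Hoxc8 in the thoracic cord.

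Of the 28 members that did not pass the filter (summed counts in the 72Q control between 0 and 28), 5 were called higher where no filter was used: Hoxb5 (28 counts in 72Q against 0), Hoxa4 (18), Hoxa5 (12), Hoxc5 (10) and Hoxd13 (9). Hoxb4, Hoxb7 and Hoxc11 had 0 counts in all 16 libraries, so these members were not detectable at this depth.

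**Figure D3:**
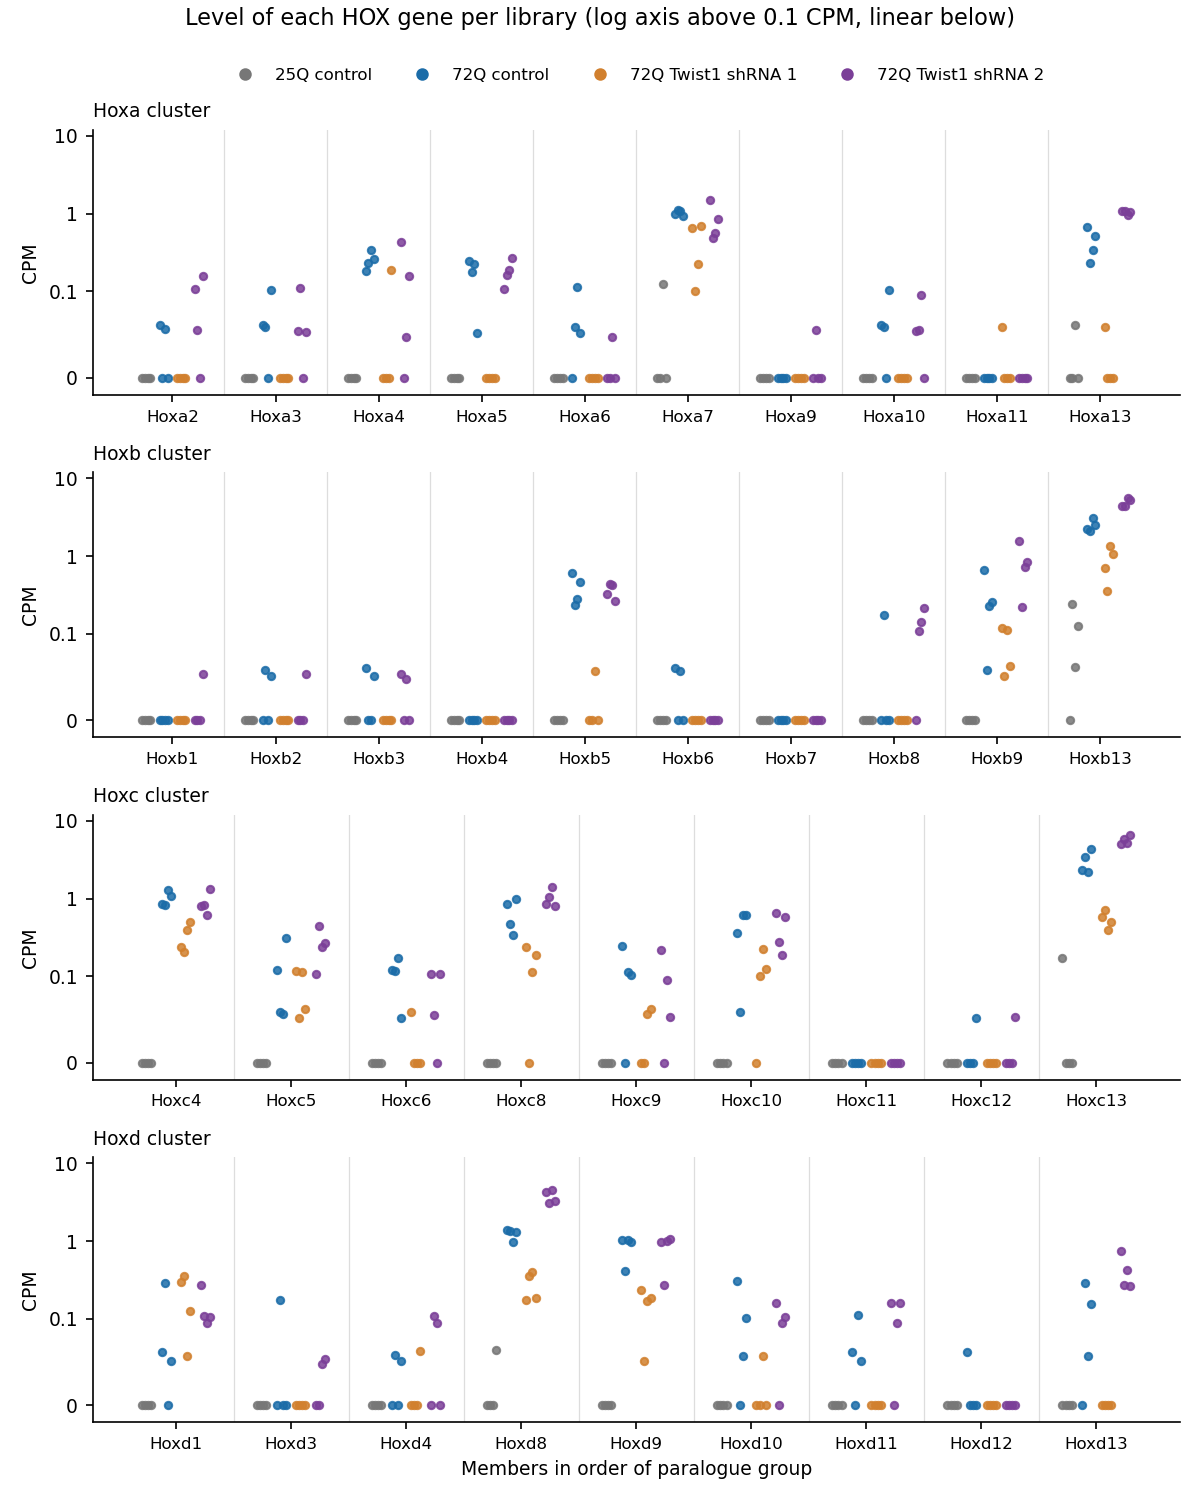
Level of each of the 38 members in each library in TMM-scaled CPM (vertical axes, logarithmic above 0.1 and linear below), 1 panel per cluster, members in order of paralogue group (horizontal axes), 4 libraries per group. Hoxc13, Hoxb13 and Hoxd8 form the highest points, with 25Q libraries at or near 0 and the shRNA 2 libraries on top.

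Per length of the gene, the deposited RPKM values put Hoxc13 (1.26 ± 0.434) and Hoxb13 (1.14 ± 0.188) highest in the 72Q control, and these levels did not differ beyond their spread. Hoxd8 (0.461 ± 0.0767), Hoxd9 (0.406 ± 0.139) and Hoxc4 (0.399 ± 0.0851) came next and lay within each other's spread. With shRNA 2 the order of the leading genes was Hoxc13 (2.47 ± 0.318), Hoxb13 (2.39 ± 0.320) and Hoxd8 (1.46 ± 0.273), followed by Hoxa13 (0.450 ± 0.0263). With shRNA 1, Hoxb13 (0.395 ± 0.194) and Hoxc13 (0.225 ± 0.0579) led. No 25Q mean RPKM of a member exceeded that of Hoxb13, 0.0459 ± 0.0450.

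HOX levels differed between the 2 Twist1 shRNAs in 72Q neurons, at mean Twist1 levels of 1.57 and 1.64 CPM. Both comparisons use the same 72Q control libraries. With Twist1 shRNA 1, 10 of 10 members tested fell and 0 rose (edgeR), while 23.6% of all genes tested were called lower and 22.7% higher. With Twist1 shRNA 2, 5 of 10 rose and 0 fell, beside 20.2% of all genes called higher and 21.5% lower. At an unadjusted p under 0.05, 0 of these 10 members were higher with shRNA 1 and 0 lower with shRNA 2, by edgeR and by DESeq2.

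The 5 genes that fell with shRNA 1 and rose with shRNA 2 were Hoxc13, Hoxb13, Hoxa13, Hoxd8 and Hoxb9. Hoxc13 counts were 10, 14, 7 and 8 with shRNA 1 and 95, 108, 110 and 124 with shRNA 2, on either side of the 72Q control values of 38 to 83. No library of 1 of these groups entered the range of another. The log2 fold changes were -2.24 ± 0.27 (adjusted p = 3.01e-09) and 0.89 ± 0.16 (adjusted p = 3.24e-05). Hoxb13 counts were 12, 7, 24 and 17 with shRNA 1 and 83, 80, 118 and 100 with shRNA 2, with log2 fold changes of -1.42 ± 0.24 (adjusted p = 4.77e-06) and 0.96 ± 0.17 (adjusted p = 2.69e-05). The 36 to 55 counts of the 72Q control lay between.

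Hoxd8, whose start region is printed above, had 3, 7, 7 and 3 counts with shRNA 1 and 79, 56, 95 and 61 with shRNA 2. It fell by 1.78 ± 0.34 on the log2 scale with shRNA 1 (adjusted p = 5.96e-06) and rose by 1.51 ± 0.20 with shRNA 2 (adjusted p = 1.60e-07), the largest rise among the members tested. Hoxa13 had 1, 0, 0 and 0 counts with shRNA 1 and 20 counts in each of the 4 shRNA 2 libraries. With shRNA 1 it was back in the range of 25Q, with a log2 fold change against 25Q of -0.003 ± 0.73 (adjusted p = 0.975), an interval of -1.43 to 1.43. Its changes against the 72Q control were -2.11 ± 0.57 (adjusted p = 2.94e-05, ratio of summed counts 0.0324 with an interval of 0.000795 to 0.194) and 1.07 ± 0.31 (adjusted p = 0.00242). Hoxb9 had 2, 1, 2 and 1 counts with shRNA 1 and 29, 4, 15 and 16 with shRNA 2, and both groups overlapped the 1 to 11 counts of the 72Q control. Its log2 fold changes were -1.02 ± 0.48 (adjusted p = 0.0198) and 1.19 ± 0.34 (adjusted p = 0.00146).

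The other 5 members tested fell with shRNA 1 and were not called with shRNA 2. Hoxd9 had 4, 1, 3 and 3 counts with shRNA 1, a log2 fold change of -1.83 ± 0.37 (adjusted p = 1.44e-05), and 18, 5, 21 and 20 with shRNA 2 (-0.055 ± 0.26, 95% interval -0.56 to 0.45, adjusted p = 0.888). Hoxc4 had 4, 4, 7 and 8 counts (-1.34 ± 0.33, adjusted p = 3.96e-04) and 15, 15, 13 and 25 (-0.17 ± 0.26, -0.69 to 0.34, adjusted p = 0.613). Neither gene's shRNA 2 libraries were separated from the 72Q control. Hoxc8 had 4, 0, 2 and 3 counts (-1.68 ± 0.51, adjusted p = 0.00129) and 16, 19, 30 and 15 (0.57 ± 0.33, -0.08 to 1.23, adjusted p = 0.141). Hoxa7 had 11, 2, 4 and 11 counts (-1.16 ± 0.38, adjusted p = 0.00541) and 28, 9, 12 and 16 (-0.26 ± 0.31, -0.88 to 0.35, adjusted p = 0.505). Both are genes of the trunk. Hoxc10 had 0, 2, 4 and 2 counts (-1.20 ± 0.55, adjusted p = 0.0236) and 12, 5, 4 and 11 (-0.003 ± 0.43, -0.84 to 0.83, adjusted p = 0.998). All adjusted p values are from edgeR's quasi-likelihood test.

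**Figure D4:**
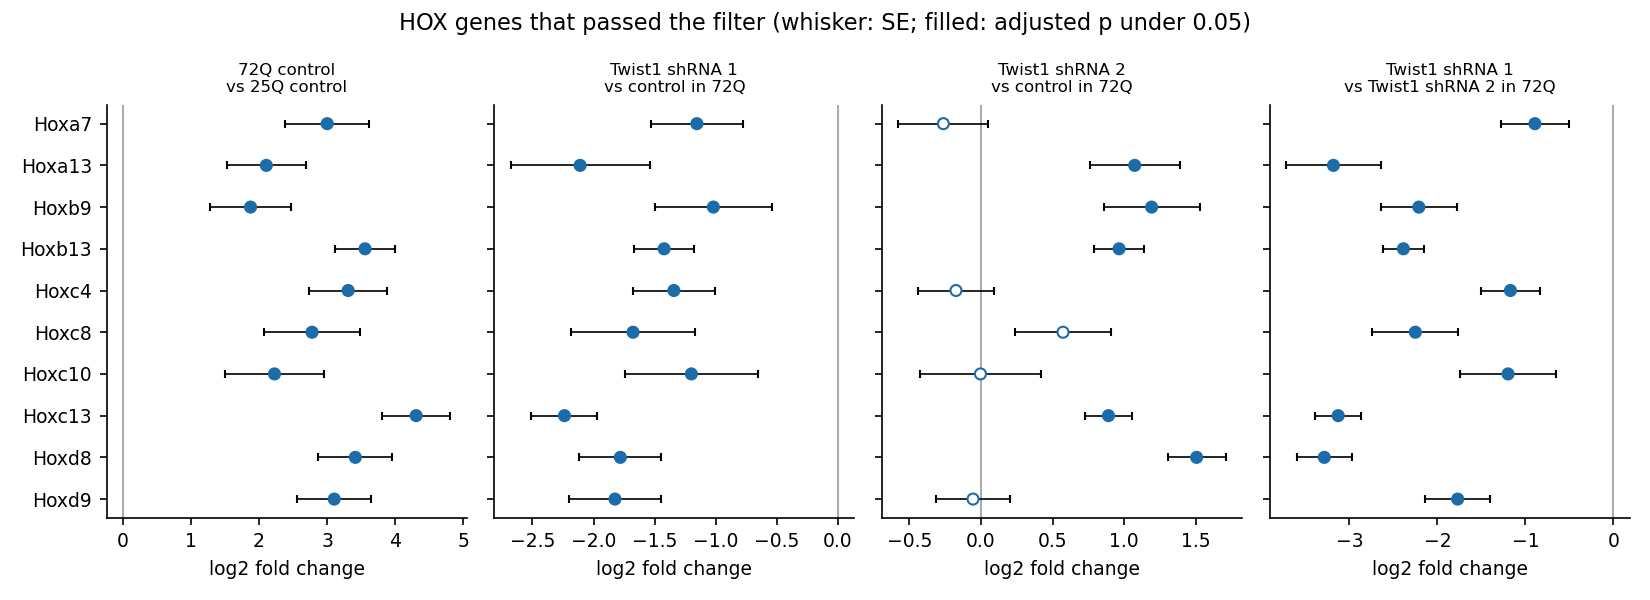
Log2 fold change (horizontal axes) of the 10 members that passed the filter (vertical axis) in 4 comparisons; whiskers are SE and filled points have an adjusted p under 0.05. All 10 points lie above 0 for 72Q against 25Q and below 0 for shRNA 1 against the control, and 5 of 10 are filled above 0 for shRNA 2.

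The difference between the shRNAs was tested directly. With shRNA 1, 10 of 10 members were lower than with shRNA 2 and 0 higher (edgeR; at an unadjusted p under 0.05, 0 higher by edgeR and DESeq2), while 25.9% of all genes tested were called lower and 27.3% higher. The fitted difference was -3.29 ± 0.31 log2 units for Hoxd8, -3.18 ± 0.54 for Hoxa13, -3.13 ± 0.26 for Hoxc13, -2.39 ± 0.23 for Hoxb13 and -2.21 ± 0.43 for Hoxb9 (adjusted p between 2.05e-13 and 2.19e-06). The ratios of summed counts, shRNA 1 over shRNA 2, gave another order. Hoxa13 was lowest at 0.0136 (1 against 80 counts, 95% interval 0.000341 to 0.0782, counting error only). Hoxd8 followed at 0.0750, Hoxc13 at 0.0974, Hoxb9 at 0.102 and Hoxb13 at 0.172. Of the genes that shRNA 2 left uncalled, Hoxc8 differed by -2.25 ± 0.49 (adjusted p = 1.84e-05) and Hoxd9 by -1.77 ± 0.37 (adjusted p = 1.57e-05). The difference was -1.20 ± 0.54 for Hoxc10, -1.17 ± 0.34 for Hoxc4 and -0.89 ± 0.38 for Hoxa7 (adjusted p = 0.0193, 0.00141 and 0.0277). The direction was the same in all 4 experiments for each of the 10 members except Hoxc10, which was lower in 3 of 4.

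Without a filter, 31 of 38 members had a lower mean level with shRNA 1 than in the 72Q control, 2 a higher one, and 5 were at 0 in both groups; 48.3% of genes with a count were lower and 45.4% higher. All shRNA 1 libraries lay below all control libraries for 10 members, against 8.5% of genes with a count. With shRNA 2, 18 members were higher, 16 lower and 4 at 0 in both, beside 47.4% of genes higher and 47% lower, and 4 were fully separated upward, beside 6.06% of genes with a count. By position, 4 of the 5 members that rose with shRNA 2 are posterior and 1, Hoxd8, is central, where 6 of the 10 tested are posterior and 4 central. Of the members below the filter, Hoxd13 had 9 counts in the 72Q control, 0 with shRNA 1 and 33 with shRNA 2, the last ratio being 3.37 (95% interval 1.58 to 8.02, counting error only). The fit with no filter did not call this Hoxd13 difference (1.16 log2 units, adjusted p = 0.0621 by edgeR), and the exp108 library had 5 counts in both groups. Hoxb5 had 28, 1 and 28 counts in these groups.

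Hoxd1, an anterior gene used in sensory neurons, departed from this pattern. It had 7 counts in the 72Q control, 15 with shRNA 1 and 11 with shRNA 2, after 0 in 25Q, and was detected in 4 of 4 shRNA 1 libraries. The ratio of shRNA 1 to the control was 2.15 (95% interval 0.826 to 6.24), so a difference was not detectable at this depth. Every count of anterior members in the shRNA 1 libraries, 15 in all, came from Hoxd1, and Hoxa2, Hoxa3, Hoxb1, Hoxb2, Hoxb3 and Hoxd3 had 0.

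The summed HOX level with shRNA 1 lay above that of 25Q in each library, as given above. Over all 38 members, 18 had a higher mean level with shRNA 1 than with 25Q, 1 a lower one and 19 were at 0 in both groups, beside 47.8% of genes with a count higher and 45% lower. Here too, members at 0 in 25Q could not be lower. All shRNA 1 libraries lay above all 25Q libraries for 8 members, beside 10.9% of genes with a count. With no filter, 10 of 35 members were called higher and 0 lower, beside 15.1% of genes higher. Of the members that passed the filter, 9 of 10 were called higher with shRNA 1 and 0 lower, beside 28.1% of all genes, Hoxa13 being the exception. These comparisons share the 25Q libraries with the first one. With shRNA 2, 10 of 10 were called higher and 0 lower, beside 31.4% of all genes. At an unadjusted p under 0.05, 0 were lower in either comparison by edgeR and DESeq2. Hoxb13 kept a log2 fold change of 2.14 against 25Q with shRNA 1 (adjusted p = 7.15e-06) and Hoxc13 one of 2.07 (adjusted p = 3.99e-05), and with shRNA 2 these were 4.52 and 5.20 (adjusted p = 1.00e-14 and 9.32e-16).

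Calls of the weakest members rested on single libraries. Hoxb9 was not called with shRNA 1 without the exp107 library of shRNA 1 (-0.70, adjusted p = 0.137), its exp109b library (-0.97, 0.0521) or the exp107 control (-0.84, 0.119). Hoxc10 was not called with shRNA 1 without the exp107 (-0.90, adjusted p = 0.111) or exp109b (-1.07, 0.0942) library of shRNA 1 or the exp109a (-0.93, 0.109) or exp109b (-1.10, 0.0739) control. The difference between the shRNAs lost its call for Hoxa7 without the exp108 (-0.68, adjusted p = 0.115) or exp109a (-0.76, 0.0952) library of shRNA 1 or the exp107 library of shRNA 2 (-0.59, 0.199). For Hoxc10 it lost its call without the exp107 (-0.90, adjusted p = 0.0996) or exp109b (-1.07, 0.0804) library of shRNA 1 or the exp107 library of shRNA 2 (-0.89, 0.103). Hoxc8 was called higher with shRNA 2 without the exp109b library of that group (0.87, adjusted p = 0.0398). Against 25Q, shRNA 1 lost Hoxb9 without the exp107 library of 25Q (0.46, adjusted p = 0.0627), Hoxc8 without the exp107 library of shRNA 1 (0.89, 0.0557) and Hoxc10 without the exp109b library of 25Q (0.89, 0.0573) or the exp109a library of shRNA 1 (0.75, 0.0803).

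Reads of some members cannot be assigned with certainty, as the strand used in counting was not among the processing notes used here. Hoxa7 shared 586 bases of its exons (15.6%) with antisense genes, and Hoxd3, Hoxd4 and Hoxb3 shared 62.8, 52.3 and 52.9% of theirs with other genes on either strand. Hoxc10 shared 166 bases with Hoxc5, and 119 of its 1860 stretches of 50 bases occurred in Hoxc5 as well. Hoxc13, Hoxb13, Hoxa13, Hoxd8, Hoxb9, Hoxd9, Hoxc4 and Hoxc8 overlapped no other annotated exon, and of these only Hoxb9 shared a stretch of 50 bases with another member (1, with Hoxc9). Annotated noncoding RNAs and pseudogenes inside the clusters numbered 36, of which 12 had a count, and their summed counts were 16 in 25Q, 61 in the 72Q control, 19 with shRNA 1 and 93 with shRNA 2. All 16 counts in 25Q belonged to the processed pseudogene Gm11539 in the Hoxb region. It also held 26 of the counts in the 72Q control, 11 with shRNA 1 and 31 with shRNA 2.

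Genes just outside the clusters were mostly expressed in all groups. Of 18 matched neighbours, 15 were tested, and 10 rose and 1 fell in 72Q, beside 29.3 and 27.8% of all genes. Skap2, an adaptor gene beside Hoxa, rose from 1.46 ± 0.178 to 6.53 ± 0.944 CPM (2.08 ± 0.17, adjusted p = 1.20e-12). Evx1, a homeobox gene at the posterior end of Hoxa that marks spinal interneurons, went from 0 to 0.315 ± 0.162 CPM (1.91 ± 0.66, adjusted p = 1.57e-04). Being at 0 in 25Q, Evx1 could pass the filter only through other groups, so its calls carry no weight in these numbers. Lnpk, beside Hoxd, and Hibadh, beside Hoxa, rose by 0.51 ± 0.062 and 0.39 ± 0.061 log2 units. With shRNA 1, 2 neighbours rose and 3 fell, and with shRNA 2, 4 rose and 4 fell (5 and 1 with library totals alone). Evx1 fell with shRNA 1 (-1.73 ± 0.61, adjusted p = 7.08e-04) and rose with shRNA 2 (1.01 ± 0.37, adjusted p = 0.0128).

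Of all genes tested, 29.3% were called higher and 27.8% lower in 72Q, 22.7 and 23.6% with shRNA 1, and 20.2 and 21.5% with shRNA 2. Of the TALE cofactors in 72Q, 4 of 9 rose and 5 fell: Pknox2 fell by 1.06 ± 0.048 log2 units, while Meis1 rose by 0.75 ± 0.088 and Pknox1 by 0.70 ± 0.067. With shRNA 1, 3 rose and 3 fell, and with shRNA 2, 1 rose and 4 fell (2 and 2 with library totals alone). Of the known upstream activators and retinoic acid genes, 14 of 20 were tested in 72Q, and 6 rose and 3 fell. Aldh1a2, which makes retinoic acid, rose from 0.0318 ± 0.0635 to 0.653 ± 0.329 CPM (2.43 ± 0.59, adjusted p = 8.52e-06). At this 25Q level Aldh1a2 could pass the filter only through other groups, so its call carries no weight in the number that rose. Cyp26b1, which degrades retinoic acid, fell by 1.47 ± 0.18, the zinc finger gene Egr2 by 0.90 ± 0.20 and the retinoic acid receptor gene Rara by 0.58 ± 0.079. Cdx1 and Cdx2 were at 0 in 25Q and with shRNA 1, and Cdx4 in all 3 groups of 72Q. With shRNA 1, 2 rose and 3 fell, and with shRNA 2, 5 rose and 3 fell (6 and 2 with library totals alone).

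Polycomb subunit genes, all 27 tested, had log2 fold changes of at most 0.66 in size in 72Q. There, 10 rose and 5 fell, and the median log2 fold change was 0.054; scaled to library totals alone, 14 rose and 2 fell. The most changed were Phf1 (0.66 ± 0.064), Cbx8 (0.56 ± 0.083) and Phc3 (0.56 ± 0.052), all higher in 72Q. With shRNA 1, 5 rose and 7 fell, and with shRNA 2, 1 rose and 7 fell (6 and 6 with library totals alone). These stand beside 29.3 and 27.8% of all genes in 72Q, 22.7 and 23.6% with shRNA 1, and 20.2 and 21.5% with shRNA 2.

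The labelled cell type was checked by its markers. The 15 cortical neuron markers were expressed in all libraries, with a sum of 8076 to 8823 CPM in 25Q and 4914 to 6015 CPM in the 72Q control, and 15 of 15 fell in 72Q, beside 27.8% of all genes (14 with upper-quartile factors, 13 with library totals alone). Their sums were 5556 to 6123 CPM with shRNA 1, where 5 rose and 2 fell (7 and 1 with upper-quartile factors), and 4980 to 5918 with shRNA 2, where 4 rose and 4 fell (6 and 3 with either other scaling). Markers of hindbrain and spinal neurons, cells that use HOX genes, had summed levels in the same order of groups as the HOX sums. Of 15 such markers 8 were tested; 7 rose and 0 fell in 72Q, 0 rose and 7 fell with shRNA 1, and 3 rose and 1 fell with shRNA 2, beside shares of all genes called higher and lower of 29.3 and 27.8%, 22.7 and 23.6%, and 20.2 and 21.5%; the same shares apply to the marker lists that follow. Markers at 0 in 25Q can pass the filter only through other groups, so the number called among these 8 carries no weight. The sum of all 15 hindbrain and spinal markers, with no filter, lay between 0.613 and 1.47 CPM in 25Q. It lay between 5.37 and 9.50 in the 72Q control, 2.56 and 4.05 with shRNA 1, and 11.3 and 15.4 with shRNA 2. Lbx1, Chat, Evx1, Tlx3 and Olig3 were at 0 in 25Q, and Chat also with shRNA 1. Evx1 was also among the cluster neighbours above. The most changed in 72Q were En1 (3.13 ± 0.40), Slc6a5 (2.66 ± 0.38) and Mnx1 (2.61 ± 0.57). Their part in the HOX result was not tested.

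Markers of sensory neurons and neural crest gave 4 of 8 higher and 1 lower in 72Q (4 and 0 with either other scaling), with sums of 74.9 to 86.9 CPM in 25Q and 103.5 to 111.6 in the 72Q control. With shRNA 1 the sum was 79.3 to 91.1 CPM, and 1 rose and 5 fell; with shRNA 2 it was 80.9 to 102.2 CPM, and 2 rose and 2 fell. Isl1 and Foxd3 were at 0 in 25Q, so they could pass the filter only through other groups. Pou4f1 rose most in 72Q (5.20 ± 0.28, adjusted p = 2.71e-20). Fibroblast and meningeal markers gave 2 of 9 higher and 4 lower in 72Q (4 and 4 with library totals alone), astrocyte markers 4 of 8 higher and 0 lower, and oligodendrocyte lineage markers 1 of 6 higher and 2 lower (2 and 1 with either other scaling). With shRNA 1, 2 fibroblast markers rose and 2 fell (2 and 1 with upper-quartile factors), 1 astrocyte marker rose and 0 fell (1 and 1 with library totals alone), and 0 oligodendrocyte markers rose and 3 fell. With shRNA 2 the counts were 2 and 3 (3 and 3 with library totals alone) for fibroblast, 0 and 5 for astrocyte and 0 and 4 for oligodendrocyte markers. Fibroblast marker sums were 378 to 451 CPM in 25Q, 348 to 408 in the 72Q control, 269 to 346 with shRNA 1 and 247 to 304 with shRNA 2. Of the microglia and blood markers 2 were tested, and Aif1, a microglial gene, rose with shRNA 2 (0.51 ± 0.10, adjusted p = 1.13e-04) while 0 were called in 72Q or with shRNA 1. The microglia and blood sum was 13.0 to 13.3 CPM with shRNA 2, above the 8.53 to 10.2 of the 72Q control, the 7.37 to 9.54 with shRNA 1 and the 8.80 to 10.8 of 25Q. Of the endothelial markers 2 were tested and 0 were called in these comparisons. The part of these lists in the HOX result was not tested either.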

How the data were processed

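Reads were aligned with STAR 2.0.4b to GRCm38 and assigned with featureCounts 1.45 (Subread), per the submitters' processing notes; Ribo-Zero depleted the ribosomal RNA, per the labels' protocols. For strandedness, multi-mapping reads and annotation release: not given in the sources used here. The authors deposited raw counts per Ensembl gene, which entered every test. Deposited CPM equalled count over library total, and deposited RPKM that CPM per kilobase; RPKM served only to order genes. CPM in the text was recomputed with TMM factors. Symbols (40340 of 41388 identifiers) and exons came from GENCODE on GRCm38.

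edgeR 4.0.16 (R 4.3.3) was fitted to all 16 libraries (filterByExpr, TMM, glmQLFit robust, glmQLFTest) with group and experiment as terms and Benjamini-Hochberg adjustment over 15103 genes. Fold changes used a prior count of 2; their SE and 95% intervals came from that fit and can differ from the p, which came from the F test. The common biological coefficient of variation was 5.24%. Alternatives were upper-quartile factors, library totals alone, DESeq2 1.42.0, no filter, a filter of at least 1 CPM in 4 libraries, a prior count of 0.5, no experiment term, title numbers as the block, and each library left out. On simulated counts for 72Q against 25Q (2 draws, 14879 and 14872 genes) edgeR called 92 and 98% of genes set 2-fold higher. It called 97.8 and 93.8% of those set 2-fold lower, 100% at 4-fold, and 0.0613 and 0.0817% of unchanged genes. The simulation gave every gene the common variation of 5.24% and held no experiment effect. Changes were set only in genes above a minimum mean count. These shares may therefore not hold for HOX members with low counts. Ratios of summed counts have exact 95% intervals, which cover counting error only. A group at 0 was given a floor of 3 counts over the group. The count of the other group was then taken as exact, so such a ratio is not a lower limit.

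The experiment was the block because libraries of 1 experiment, named in the description labels, deviated together from their group means in all 24 pairs (correlation across genes 0.223 to 0.612, mean 0.392, against a mean of -0.128 between experiments). Title numbers gave -0.218 to 0.612. No label ties replicates to separate cultures, and p-values therefore reflect only the spread among these libraries, which may be technical. Replicate pairs differed by 2.71 to 20.8 times sampling noise, so each library counted once. Members, lists and tests were chosen with earlier results of these data known. All 10 members that passed the filter were described in full, with up to 4 called genes of largest change per other list, some of which are not reported here. The protein sequences of the members were not used here.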

Additional observations from a re-analysis of the deposited data

Results flagged for a closer look

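In 11 of 66 groups of 4 libraries with differing values, some of them sums that share genes, 1 library stood apart. In 8 of these the other 3 libraries were at 0, which always sets the remaining one apart. Of the other 58 groups 3 had such a library, where chance gives about 1 in 20. In 25Q, where counts were 0 to 3, the libraries in question were the only ones above 0: Hoxa13 at 0.0613 CPM, Hoxa7 at 0.123, Hoxc13 at 0.174 and Hoxd8 at 0.0635, and with them the sums of Hoxa (0.184 CPM), Hoxc (0.174) and Hoxd (0.0635). With shRNA 1, Hoxa13 was seen in 1 library only, at 0.0588 CPM. Hoxd9 was low in the exp108 library of the 72Q control (0.409 CPM) and in that of shRNA 2 (0.274 CPM). The Hoxc sum was high in the exp109b library of the 72Q control, at 7.48 CPM against 4.80 to 4.90 in the other 3.

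For 5 members the 2 Twist1 shRNAs had opposite called effects against the shared control. The fitted direct difference, shRNA 1 minus shRNA 2, was -3.29 log2 units for Hoxd8, -3.18 for Hoxa13, -3.13 for Hoxc13, -2.39 for Hoxb13 and -2.21 for Hoxb9. This order differs from that of the ratios of summed counts.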

How the results depend on the processing

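No direction of a called member reversed. Over 4 comparisons (all but those of the Twist1 shRNA groups with 25Q), and taking only the lowest and highest fold change from the fits that leave out a library, 364 single-gene values kept their side of the threshold, 15 lost and 1 gained a call; the report names each call that changed without a single library. Upper-quartile factors and library totals alone left each count of called members as it was, while the median of all genes in 72Q against 25Q moved from 0.03 to 0.092 and 0.163 log2 units (0.22 for shRNA 2 against 25Q with library totals alone). A filter of at least 1 CPM in 4 libraries left fewer members to test: 5 were higher in 72Q than in 25Q, 5 lower with shRNA 1 than with the control, 5 lower with shRNA 1 than with shRNA 2, and 4 (shRNA 1) and 5 (shRNA 2) higher than in 25Q. With no filter, 16 were higher with shRNA 2 than in 25Q. The member with most counts in each cluster carried much of the summed level: without these 4, it was 0.01533 CPM in 25Q, 5.71 in the 72Q control, 1.286 with shRNA 1 and 7.415 with shRNA 2. Leaving out each library in turn gave 10 members higher in 72Q, 8 to 10 lower with shRNA 1, 5 to 6 higher with shRNA 2, 8 to 10 lower with shRNA 1 than with shRNA 2, 8 to 9 (shRNA 1) and 10 (shRNA 2) higher than in 25Q, and 0 the other way in each comparison. The members separated between 72Q and 25Q then numbered 15 to 18, and the sums were 0.2029 to 0.2268 CPM in 25Q, 12.86 to 14.01 in the 72Q control, 3.203 to 3.749 with shRNA 1 and 22.2 to 23.73 with shRNA 2.

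With no replicate block, 8 members were lower with shRNA 1 than with the control, 4 higher with shRNA 2, 8 lower with shRNA 1 than with shRNA 2, and 7 higher with shRNA 1 than in 25Q; with title numbers as the block these counts were 9, 5, 9 and 9. Adjusted p without the block was 0.152 for Hoxb9 and 0.0698 for Hoxc10 with shRNA 1, 0.0696 for Hoxb9 with shRNA 2, and 0.088 for Hoxa7 and 0.0599 for Hoxc10 between the shRNAs. The title-number block gave 0.0588 for Hoxc10 with shRNA 1 and 0.063 for Hoxa7 between the shRNAs. DESeq2 also left Hoxb9 (0.0809) and Hoxc10 (0.067) with shRNA 1, and Hoxa7 between the shRNAs (0.053), uncalled, and Hoxb9 with shRNA 1 had 0.0534 with no filter. The cause of these lost calls was not tested. Below about 10 counts per group, depth limits what can be seen of a member.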
